A study of Homo sapiens with 5 samples.

Results

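The linker histone genes were taken by symbol from a table of ribosome footprint counts of HAP1 cells, and were HIST1H1A, HIST1H1B, HIST1H1C, HIST1H1D, HIST1H1E, H1F0 and H1FX. These 7 genes had 1 row each among 13638 rows in all. Of the 7, 5 had enough counts to be tested, and HIST1H1A and H1F0 did not. HAP1 is a human line from a chronic myeloid leukaemia and is nearly haploid. The tested cells were labelled ZCCHC4 knockout, with 3 libraries, and the cells they were set against were labelled wild type, with 2 libraries. The series names ZCCHC4 as the methyltransferase that places N6-methyladenosine on 28S ribosomal RNA. Every library came from lysates with cycloheximide, an inhibitor that holds ribosomes in place, and no other treatment was labelled. The labels do not state the knockout allele, whether the cells were 1 clone, or whether libraries came from separate cultures, so p-values measure only the spread between these libraries.

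Linker histones, or H1, bind the nucleosome where DNA enters and leaves it and cover part of the DNA between nucleosomes, and they are known for their part in compacting chromatin. HIST1H1A to HIST1H1E are replication-dependent genes: they lack introns, lie among the core histone genes of chromosome 6, are transcribed mainly while DNA is copied, and make mRNAs that end in a stem-loop bound by SLBP. H1F0 and H1FX are replacement forms encoded elsewhere, made also outside DNA replication, and H1F0 is known to build up in differentiated or resting cells.

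The stretches just upstream of the gene starts are shown because known control elements of H1 genes lie there. They are the 130 bases before the start in RefSeq (GRCh38.p14), which held 6 of the 7 genes by symbol or synonym, with H1F0 as the gene not matched. Capitals mark 3 motifs searched on both strands: AAACACA, known as the H1 box, CCAAT, which reads ATTGG on the other strand, and TATAAA, a form of the TATA box.
HIST1H1D: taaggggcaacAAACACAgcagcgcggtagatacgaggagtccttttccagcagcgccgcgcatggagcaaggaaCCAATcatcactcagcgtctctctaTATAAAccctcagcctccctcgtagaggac
HIST1H1C: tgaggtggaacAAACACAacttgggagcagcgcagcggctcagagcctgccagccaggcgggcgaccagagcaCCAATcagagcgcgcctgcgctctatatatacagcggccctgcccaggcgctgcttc
HIST1H1E: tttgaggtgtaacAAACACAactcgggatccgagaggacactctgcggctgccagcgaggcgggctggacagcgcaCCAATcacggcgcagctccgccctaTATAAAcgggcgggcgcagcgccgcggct
HIST1H1B: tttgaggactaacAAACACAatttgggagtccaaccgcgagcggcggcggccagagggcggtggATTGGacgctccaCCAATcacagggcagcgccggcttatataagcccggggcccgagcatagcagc
HIST1H1A: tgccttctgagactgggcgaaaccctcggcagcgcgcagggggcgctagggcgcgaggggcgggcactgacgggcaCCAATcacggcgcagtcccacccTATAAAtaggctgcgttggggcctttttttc
H1FX: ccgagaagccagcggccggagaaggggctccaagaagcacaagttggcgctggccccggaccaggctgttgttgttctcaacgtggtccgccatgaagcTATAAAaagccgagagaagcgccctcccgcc
The stretches lie at chr6:26234988-26235117 (minus strand, HIST1H1D), chr6:26056471-26056600 (minus, HIST1H1C), chr6:26156199-26156328 (plus, HIST1H1E), chr6:27867589-27867718 (minus, HIST1H1B), chr6:26017788-26017917 (minus, HIST1H1A) and chr3:129316287-129316416 (minus, H1FX). Positions count bases before the start and give a motif's first base. AAACACA stood on the gene's own strand at -119 in HIST1H1D and HIST1H1C and at -117 in HIST1H1E and HIST1H1B. CCAAT stood between -57 and -53 in all 5 replication-dependent genes, and HIST1H1B had it also on the other strand at -66. TATAAA stood between -31 and -29 in HIST1H1D, HIST1H1E, HIST1H1A and H1FX, and was not in the stretches of HIST1H1C and HIST1H1B. Only this exact form was searched, so its absence does not show that a TATA box is lacking. Farther up, HIST1H1E had TATAAA on the other strand at -148. Among 35116 RefSeq windows of the 250 bases before a start, 4.82% held AAACACA, 32.0% held CCAAT, 10.7% held TATAAA and 0.319% held all 3, on either strand. Farther up in its 250 bases, HIST1H1B had AAACACA again at -226, and on the other strand it stood at -183 in HIST1H1A and -242 in HIST1H1C. A match of letters describes the window and is not a measured binding site.

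Library totals were 29191146, 16940732 and 31557573 counts in the knockout, against 5302160 and 4887380 counts in wild type, so depth and genotype cannot be told apart. ZCCHC4 itself had 3.85, 3.41 and 4.98 CPM (CPM are counts relative to the TMM-scaled library total) in the knockout, against 16.0 and 13.25 CPM in wild type. Its log2 fold change, knockout over wild type, was -1.82 (SE 0.20; adjusted p = 7.27e-05, edgeR quasi-likelihood, Benjamini-Hochberg). Over all 11205 genes tested, 3380 (30.2%) were called higher and 3341 lower at an adjusted p under 0.05, 60.0% in all, with a median log2 fold change of 0.02. Scaling by library totals alone, which moved that median by -0.22, gave 2391 higher and 4563 lower. Knockout replicate 2 stood apart from the other knockout libraries, with 27.7 and 24.6 chi-square units for each degree of freedom against them, where those 2 gave 2.97 with each other. The 2 wild-type libraries gave 1.14, close to counting error alone, so SDs in wild type hold little other spread. As markers of other blood cells, 2 of 7 listed genes had a row, with at most 2 counts in any library, a summed level of 0.0339 to 0.0619 CPM in the knockout and 0.345 to 0.373 CPM in wild type. BCR and ABL1, joined in the leukaemia from which HAP1 derives, both had a row, with a summed 4.88 to 5.31 CPM in the knockout and 7.93 to 8.03 CPM in wild type.

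All 5 tested linker histone genes were called higher in the knockout, beside 30.2% of all genes tested. In each of the 5, every knockout library lay above both wild-type libraries, as it did in 38.5% of all genes tested. HIST1H1B passed the filter on low counts only through the knockout libraries, so it adds nothing to that count; the other 4 were well counted in both genotypes. A footprint count grows with a gene's mRNA as well as with the ribosomes on it, and no mRNA libraries were used here. In cells measured in bulk, a change in the share of cells that are copying DNA and a change in each cell cannot be told apart. The values are relative to the other genes of a library.

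HIST1H1D, a replication-dependent somatic H1 (ENSG00000124575, chr6:26234268-26234933, minus strand, a single coding exon, hg38), differed most. Its counts were 34360, 20143 and 37329 in the knockout, against 316 and 364 in wild type. That is 1259, 1247 and 1264 CPM in the knockout, against 54.5 and 67.9 CPM in wild type. The knockout libraries lay within a narrow band far above both wild-type libraries, and the wild-type libraries differed more from each other in proportion. HIST1H1D averaged 1257 ± 8.48 CPM in the knockout (SD, n = 3) and 61.2 ± 9.51 CPM in wild type (SD, n = 2), a fitted 20.6-fold difference. The log2 fold change was 4.36 (SE 0.10; adjusted p = 2.32e-08, edgeR quasi-likelihood, Benjamini-Hochberg). It ranked 13th from the top by log2 fold change among the 8150 genes whose mean log2 CPM reached 3.

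HIST1H1C and HIST1H1E, the most abundant linker histone genes here, rose by smaller factors. HIST1H1C (ENSG00000187837, chr6:26055787-26056428, minus strand, a single coding exon) had 3552, 3610 and 3521 CPM in the knockout, against 1439 and 1478 CPM in wild type. The genotypes lay far apart and each was tight. HIST1H1C was 2.44-fold higher, with a log2 fold change of 1.29 (SE 0.05; adjusted p = 3.11e-07, edgeR quasi-likelihood, Benjamini-Hochberg). HIST1H1E (ENSG00000168298, chr6:26156354-26157107, plus strand, a single exon with UTRs) had 2961, 2992 and 2945 CPM in the knockout, against 1615 and 1607 CPM in wild type. Here too no library crossed over, and HIST1H1E was 1.84-fold higher (log2 fold change 0.88, SE 0.05; adjusted p = 2.11e-06, edgeR quasi-likelihood, Benjamini-Hochberg). HIST1H1C ranked 417th and HIST1H1E 1006th of the same 8150 genes.

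HIST1H1B and HIST1H1A, the other replication-dependent somatic forms, were close to or under the limit of detection. HIST1H1B (ENSG00000184357, chr6:27866849-27867529, minus strand, a single coding exon) had 53, 13 and 25 counts in the knockout, against 1 and 1 in wild type. Its level was 1.94, 0.805 and 0.846 CPM in the knockout, against 0.172 and 0.187 CPM in wild type, so that knockout replicate 1 lay above the other knockout libraries. Wild-type values rest on 2 counts in all, and pooled scaled counts gave a ratio of 6.96 with an exact 95% interval of 1.87 to 58.3, for counting error only. The fitted log2 fold change was 2.73 (SE 1.01; adjusted p = 0.0408, edgeR quasi-likelihood, Benjamini-Hochberg). That call was lost with library totals (adjusted p = 0.0581), with DESeq2 (adjusted p = 0.0518), and when wild-type replicate 1 (adjusted p = 0.199) or replicate 2 (adjusted p = 0.176) was left out. HIST1H1A (ENSG00000124610, chr6:26017085-26017732, minus strand, a single coding exon) had 1, 0 and 2 counts in the knockout and 0 and 0 in wild type. A count of 0 allows up to 3 counts, or 0.186 CPM in knockout replicate 2 and 0.517 and 0.560 CPM in the wild-type libraries, so no difference in HIST1H1A was detectable at this depth.

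Of the replacement forms, H1FX had the smallest fold change of the 4 well counted genes, and H1F0 was hardly detected. H1FX (ENSG00000184897, chr3:129314771-129316277, minus strand, a single exon with UTRs) had 338, 383 and 368 CPM in the knockout, against 279 and 270.6 CPM in wild type. The lowest knockout library still lay above both wild-type libraries. H1FX was 1.32-fold higher, with a log2 fold change of 0.40 (SE 0.08; adjusted p = 0.00177, edgeR quasi-likelihood, Benjamini-Hochberg). With library totals it was 0.18 (adjusted p = 0.0703). The antisense gene H1FX-AS1 shares 886 of the 1507 bases of H1FX, and without stranded counting reads of the 2 cannot be told apart; the counting is not given in the sources used here. H1F0 (ENSG00000189060, chr22:37805093-37807436, plus strand, a single exon with UTRs) had 0, 0 and 0 counts in the knockout and 1 and 0 in wild type. Its 3-count limits were 0.110, 0.186 and 0.102 CPM in the knockout libraries, and no difference was detectable.

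**Figure D1:**
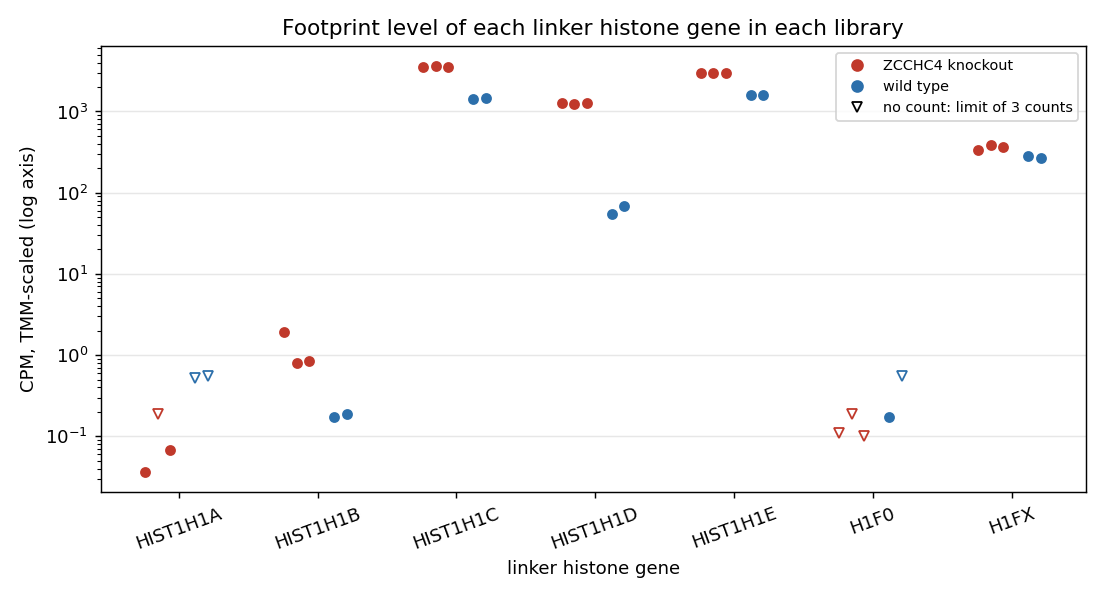
Footprint level in CPM (log scale) of each linker histone gene in each library, ZCCHC4 knockout libraries to the left of the wild-type libraries, with open triangles at the 3-count limit where a library had no count. HIST1H1D lies between 1247 and 1264 CPM in the knockout, against 54.5 and 67.9 CPM in wild type.

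**Figure D2:**
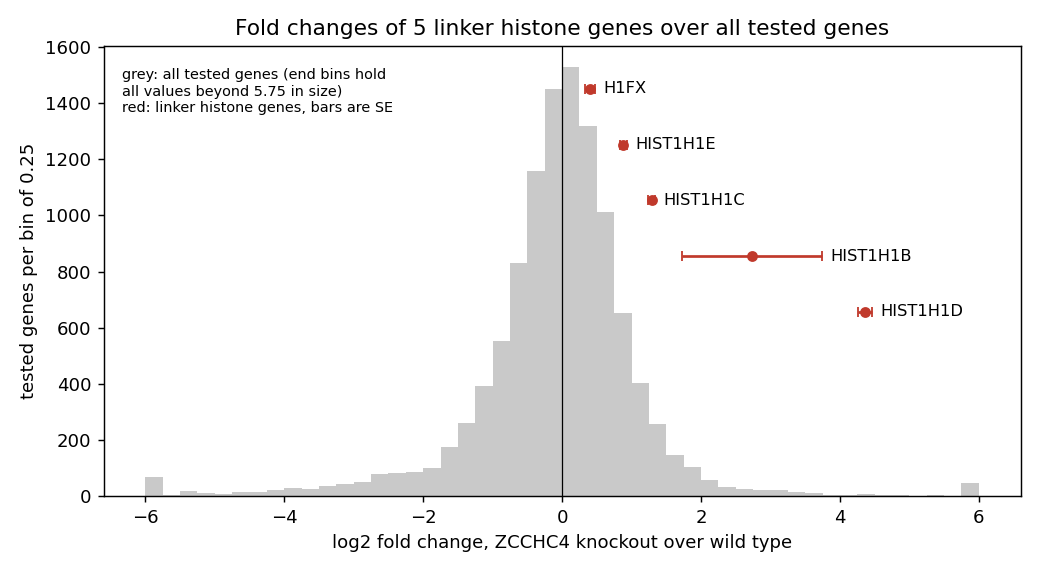
Log2 fold changes, knockout over wild type, of the 5 tested linker histone genes (red points with SE bars, heights arbitrary) over a histogram of all 11205 tested genes (grey, bins of 0.25, end bins holding all values beyond). All 5 points lie right of 0, from 0.40 for H1FX to 4.36 for HIST1H1D.

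Levels of different genes were compared as CPM per kilobase of coding sequence. In the knockout the order was HIST1H1C at 5547 ± 70.3, HIST1H1E at 4494 ± 35.9, HIST1H1D at 1887 ± 12.7, H1FX at 565.5 ± 35.6 and HIST1H1B at 1.76 ± 0.947 CPM per kilobase (SD, n = 3). In wild type the order was HIST1H1E at 2441 ± 8.46, HIST1H1C at 2272 ± 43.5, H1FX at 428 ± 9.61, HIST1H1D at 91.9 ± 14.3 and HIST1H1B at 0.264 ± 0.0148 CPM per kilobase (SD, n = 2). HIST1H1C was thus above HIST1H1E in the knockout and below it in wild type, and HIST1H1D was above H1FX in the knockout and below it in wild type. Libraries of neighbours in these orders did not overlap within a genotype. HIST1H1A and H1F0, and HIST1H1B in wild type, lay at or under the limit of 3 counts in each library, and their order cannot be read.

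The make-up of the linker histone footprints changed with genotype. HIST1H1D made up 15.2%, 14.8% and 15.3% of the summed level per coding length of the 7 genes in the knockout, against 1.57% and 1.94% in wild type. Every knockout library was far above both wild-type libraries, by 13.3 percentage points on average. HIST1H1E made up 36.1%, 35.9% and 35.9% in the knockout, against 47.0% and 46.3% in wild type, so its share was lower although its level was higher. H1FX made up 4.23%, 4.72% and 4.62% in the knockout, against 8.36% and 8.01% in wild type, also a lower share. Of the 4 well counted genes HIST1H1C differed least, at 44.5%, 44.5% and 44.2% in the knockout, against 43.0% and 43.8% in wild type, still with no overlap.

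**Figure D3:**
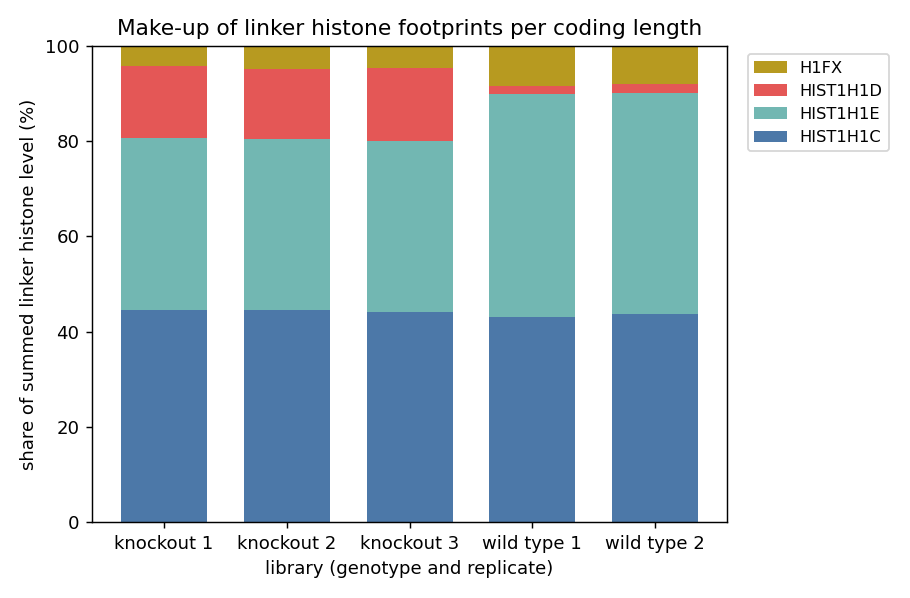
Share of each linker histone gene in the summed footprint level per coding length, in percent, for each library, knockout libraries left of wild-type libraries; the 3 scarcest genes are too small to be drawn. HIST1H1D takes 14.8% to 15.3% in the knockout, against 1.57% and 1.94% in wild type.

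Ratios of counts within a library do not depend on scaling between libraries. HIST1H1D had 0.354, 0.346 and 0.359 counts per HIST1H1C count in the knockout, against 0.0379 and 0.046 in wild type, an 8.46-fold higher ratio. HIST1H1E had 0.833, 0.829 and 0.837 counts per HIST1H1C count in the knockout, against 1.12 and 1.09 in wild type. H1FX had 0.0952, 0.106 and 0.105 counts per HIST1H1C count in the knockout, against 0.194 and 0.183 in wild type. In none of the 3 ratios did the genotypes overlap. Each gave p = 0.1 in a two-sided exact permutation test over the 10 possible assignments, also after adjustment over the 3, and 0.1 is the smallest p that 3 against 2 libraries allow. Unequal change within a library does not show which gene stayed the same.

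The summed level of the 7 genes was 8112, 8233 and 8099 CPM in the knockout, against 3388 and 3424 CPM in wild type, a ratio of 2.39. The core histone genes, whose proteins form the nucleosome that H1 binds, were also higher: their 50 rows summed to 30890, 34300 and 31340 CPM in the knockout, against 17020 and 16510 CPM in wild type, a ratio of 1.92. Linker over core was 0.263, 0.24 and 0.258 in the knockout, against 0.199 and 0.207 in wild type, with no overlap. Of 45 core histone genes tested, 40 were called higher, 1 lower and 4 neither, but 5 of the 45 passed the filter on low counts only through the knockout. The other 40 held 36 called higher and 1 lower, with a median log2 fold change of 1.26. Over all genes tested, 30.2% were called higher. The 4 linker histone genes well counted in both genotypes had a median of 1.08, beside 0.03 for the 10360 genes that either genotype alone would have kept. HIST1H3H, a core H3 gene, averaged 659 ± 79.7 CPM in the knockout and 83.6 ± 1.13 CPM in wild type, a log2 fold change of 2.98. HIST1H2BO, a core H2B gene, averaged 511 CPM in the knockout and 134 CPM in wild type, a log2 fold change of 1.93. Of the 45, 3 had a larger fitted log2 fold change than HIST1H1D, and these rest on few wild-type counts. Singled out after their values were seen, they were HIST3H3, HIST1H3I and HIST1H4L, core H3 and H4 genes, with at most 2 counts in a wild-type library. HIST4H4, a core H4 gene picked out in the same way, lay close to HIST1H1D. Its log2 fold change was 4.28 (SE 0.20), with 146 and 105 counts in wild type.

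On chromosome 6, HIST1H1D lies among core histone genes whose fitted log2 fold changes were smaller, some of them with wide SEs. On its lower-coordinate side the nearest tested genes were HIST1H2AE, a core H2A gene 16.79 kb away, with a log2 fold change of 0.79 (SE 0.06), and HIST1H2BG, a core H2B gene 17.58 kb away, with 1.33 (SE 0.06), both called higher. On the other side lay HIST1H4F, a core H4 gene 5.493 kb away, with 19, 12 and 12 counts in the knockout, against 1 and 0 in wild type (adjusted p = 0.0581, edgeR quasi-likelihood, Benjamini-Hochberg). Its log2 fold change was 2.63 (SE 1.07), and it was not called. HIST1H3F, a core H3 gene 15.26 kb away, had a log2 fold change of 0.60 (SE 0.27; adjusted p = 0.0862, same test) and was not called. Within 300 kb on either side of HIST1H1D, 23 other histone genes were tested, of which 2 passed the filter on low counts only through the knockout. Of the other 21, 19 were called higher and 0 lower, with a median log2 fold change of 1.18. The largest, picked out after its value was seen, was 4.02 (SE 0.52) in HIST1H3C, on 14 wild-type counts. HIST1H1B lies 1632.6 kb from HIST1H1D, in a stretch with 11 other tested histone genes, of which 3 passed the filter only through the knockout. The other 8 were all called higher, with a median log2 fold change of 1.87. Over all genes tested, 30.2% were called higher. These 21 and 8 genes are among the core histone genes counted above, so they add no separate result.

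**Figure D4:**
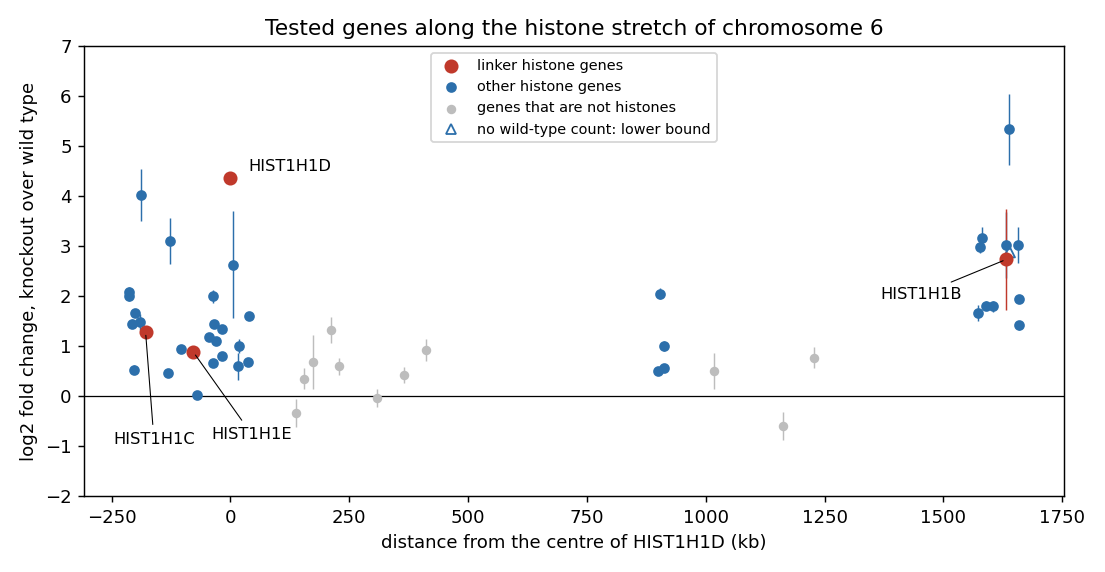
Log2 fold change, knockout over wild type, of tested genes along the histone stretch of chromosome 6, against distance from the centre of HIST1H1D in kb, with SE bars. Red points are linker histone genes, blue points other histone genes (HIST1H1T among them), grey points other genes, and the open triangle is a lower bound for a gene with no wild-type count; HIST1H1D at 4.36 stands above its tested neighbours.

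Paralogs that share sequence can exchange reads, so footprint-sized windows of each coding sequence were searched in all other GENCODE 29 transcripts. HIST1H1D shared 0 of its 639 windows of 28 nt with another gene. HIST1H1C shared 10 of 615, HIST1H1E 12 of 633 and HIST1H1B 18 of 654, in each case with others of these 3 genes. HIST1H1A, H1F0 and H1FX shared none at 28 nt. For HIST1H1B, whose knockout level was far below those of HIST1H1C and HIST1H1E, the part of such reads in its few counts was not tested. These are exact matches, and reads with mismatches were not considered. Core histone genes were not searched in this way, so reads exchanged among them were not tested.

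The coding sequences give proteins rich in lysine and alanine, as is known of H1 tails. Lysine made up 27.6% of 221 residues in HIST1H1D, 27.7% of 213 in HIST1H1C, 28.3% of 219 in HIST1H1E and 19.2% of 213 in H1FX. HIST1H1D was 86.0% identical to HIST1H1E and 81.1% to HIST1H1C, whereas H1FX was 33.2% to 37.2% identical to the 5 replication-dependent forms. GC content ran from 53.2% in HIST1H1A and 54.4% in HIST1H1D to 61.4% in HIST1H1E and 66.8% in H1FX. Of the lysine codons, 65.6% were AAG in HIST1H1D, 72.9% in HIST1H1C, 75.8% in HIST1H1E and 92.7% in H1FX.

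Genes that act on histone mRNA or on H1 were read from lists. Of 17 tested genes of histone mRNA transcription and processing, 6 were called higher, 3 lower and 8 neither, with a median log2 fold change of 0.15. These counts stand near those of all genes tested, of which 30.2% were called higher and 60.0% either way, so they single out nothing about the list, and the other lists are read beside the same shares. SLBP, the stem-loop binding protein, averaged 266 ± 21.6 CPM in the knockout and 123 ± 1.05 CPM in wild type (log2 fold change 1.11, SE 0.09). CTIF, a translation factor that acts with SLBP on histone mRNA, averaged 10.9 ± 1.07 CPM in the knockout and 26.2 ± 1.45 CPM in wild type (log2 fold change -1.27, SE 0.14), and both were called. Of 7 tested H1 chaperones and import factors, 5 were called higher, 0 lower and 2 neither, with a median of 0.34. NASP, a histone chaperone that binds H1, averaged 986 ± 174 CPM in the knockout and 604 ± 1.72 CPM in wild type. KPNB1, an import receptor, averaged 1725 ± 22.5 CPM in the knockout and 1446 ± 23.6 CPM in wild type. Both were called higher, but KPNB1 lost its call with library totals (log2 fold change 0.04, against 0.25; adjusted p = 0.566, edgeR quasi-likelihood, Benjamini-Hochberg) and without wild-type replicate 2 (adjusted p = 0.0693). Of that list 1 gene was called higher with library totals or without wild-type replicate 2, and 2 without wild-type replicate 1. Of 11 tested H1 modifying enzymes, 7 were called higher, 3 lower and 1 neither, with a median of 0.45. CCNE1, the cyclin that activates CDK2 at the start of DNA replication, averaged 28.2 ± 1.52 CPM in the knockout and 6.23 ± 1.49 CPM in wild type, and was called higher. PRKDC, a DNA-dependent protein kinase, averaged 1585 ± 38.3 CPM in the knockout and 3569 ± 39.4 CPM in wild type, and was called lower.

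The 2 markers of dividing cells that were read did not move in the same direction. MKI67, found in cycling cells, averaged 1015 ± 109 CPM in the knockout and 763 ± 8.43 CPM in wild type and was called higher. TOP2A, a topoisomerase of late cell cycle, averaged 1192 ± 79.4 CPM in the knockout and 2040 ± 52.1 CPM in wild type and was called lower. Among the 11 tested H1 modifying enzymes, the cell cycle genes CCNE1, CDK2, CCNA2, CCNB1 and CDK1 were called higher and AURKB lower. This grouping was not part of a set rule. Over all genes tested, 30.2% were called higher and 60.0% either way, so the grouping adds no separate result. The part of the cell cycle in the linker histone levels was not tested.

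Patterns were compared with those of the 8150 genes, with the 7 linker histone genes left out as candidates. Across the 5 libraries, the genes whose pattern lay nearest to a linker histone gene were found by the distance between centred log2 CPM values. For HIST1H1D these were PCDH18, a protocadherin, at a distance of 0.226 with a log2 fold change of 4.38, and MICALCL at 0.554 with 5.09. PCDH18 averaged 104.7 ± 2.57 CPM in the knockout and 5.02 ± 0.0273 CPM in wild type. For HIST1H1C they were RNMTL1 at 0.0616 and SPTLC2, a subunit of serine palmitoyltransferase, at 0.0621. For HIST1H1E they were SEMA6A, a semaphorin, at 0.0343 and ELOVL5, a fatty acid elongase, at 0.0374. For H1FX they were MYH9, a non-muscle myosin heavy chain, at 0.054 and SRRT at 0.0583, and for HIST1H1B they were MOBP at 0.728 and TEFM at 0.774. Nearness here rests on 5 libraries in 2 genotypes.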

How the data were processed

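Ribosome footprints of HAP1 cells were measured in 5 libraries. Per the labels' protocols, lysates were digested with RNase I, monosomes were separated by sucrose gradient, and footprints 28 to 32 nt long were selected on a gel. The deposited table holds whole-number counts per transcript, not normalized. Its header was shifted by 1 cell, and columns were assigned by name after that shift. Bowtie (version not given) and hg38 are named in the submitters' processing notes. For the counting tool, the strand and multiply mapping reads the sources used here say nothing. Transcripts were placed with GENCODE 29, which matched 13533 rows.

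The test was edgeR's quasi-likelihood test (edgeR 4.0.16, R 4.3.3) on genotype alone. TMM gave the scaling, filterByExpr kept genes by a minimum count of 10, and p-values were adjusted by Benjamini-Hochberg over all 11205 genes tested and called under 0.05. SE of log2 fold changes is approximate. The procedure was run on simulated data with the same dispersion for all genes and libraries and few changed genes. These data differ in both, so that run does not measure the error rates here. CPM use TMM-scaled totals. Totals ran from 16940732 to 31557573 counts in the knockout and from 4887380 to 5302160 in wild type, where 1 count is 0.0339 to 0.0619 CPM and 0.172 to 0.187 CPM. Intervals and the 3-count limit cover counting error only. The wild-type libraries gave a chi-square of 11664 on 10240 degrees of freedom over genes with at least 20 counts, and were kept as 2 replicates. That is 1.14 for each degree of freedom, close to counting error alone. Proteins and shared windows were computed from GENCODE 29 coding sequences. By rule, the genes named were the 7 members, ZCCHC4 and the 2 tested genes of smallest p in each list. The rule also took the 2 nearest patterns for each tested member and the 2 nearest tested genes on each side of HIST1H1D. Named outside it were listed markers, other cell cycle genes among H1 modifying enzymes, and histone genes singled out after their values were seen. Members and lists were chosen with earlier results of these data known, so no count over them is independent support. Alternatives were RLE, upper quartile and library-total scaling, other count filters, DESeq2 1.42.0, the replicate number as a block, each library left out, and, chosen after seeing the data, thinning to the lowest total.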

Additional observations from a re-analysis of the deposited data

How the results depend on the processing

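HIST1H1C, HIST1H1D and HIST1H1E were called higher under each of the 13 other settings, with log2 fold changes of 1.07 to 1.33, 4.14 to 4.53 and 0.66 to 0.92. H1FX lost its call only with library totals (0.18, adjusted p = 0.0703). HIST1H1B ran from 2.52 to 2.91 in the settings that kept it. It lost its call with library totals (2.52), with DESeq2 (2.75) and without either wild-type library (2.68 and 2.79). It was filtered out at a mean count of at least 50, on thinned libraries and without knockout replicate 1 or 3. Linker histone genes called higher therefore numbered 3 with library totals and 4 to 5 with 1 library left out, against 5. The excess of HIST1H1D in the make-up was 13.6 percentage points on raw counts and 13.2 to 13.5 with 1 library left out, against 13.3.

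The gene lists moved more. With library totals, 6 histone mRNA genes were lower (3 as reported), 1 H1 chaperone and 1 HMG or PARP1 gene higher (5 and 2 as reported) and 3 core histone genes lower (1 as reported). Upper quartile scaling, a mean count of at least 50 and thinning each gave 2 core histone genes lower, thinning 1 HMG or PARP1 gene higher, and no filter 5. With 1 library left out, these counts ran from 1 to 5 for histone mRNA genes lower, from 1 to 6 for chaperones higher, from 1 to 6 for HMG or PARP1 genes higher and from 0 to 2 for core histone genes lower. The cause of these moves was not tested.

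Replicate numbers 1 and 2 occur in both genotypes, but the labels do not say that they pair libraries, so the libraries were not treated as paired. Deviations of the same-numbered libraries had correlations of -0.0507 and -0.0493. These cannot settle pairing, since deviations of 2 wild-type libraries mirror each other and lie close to counting error. With the replicate block, 6094 genes were called against 6721, 5 linker histone genes were higher, 1 H1 chaperone and 0 core histone genes lower. HIST1H4F was called (log2 fold change 2.90, adjusted p = 0.0304, edgeR quasi-likelihood, Benjamini-Hochberg). Replicate number 3 occurs only in the knockout, so in this setting knockout replicate 3 does not inform the genotype difference. Depth limits HIST1H1A, H1F0 and HIST1H1B most, since 1 wild-type count is 0.172 to 0.187 CPM.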

Other observations

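HIST1H1T, a linker histone gene known from the testis and not one of the 7, was also higher. It was the only 1 of 4 further H1 genes listed that had a row. It had 100, 52 and 139 counts in the knockout, against 3 and 2 in wild type, or 3.86 ± 0.763 CPM in the knockout (SD, n = 3) and 0.445 ± 0.102 CPM in wild type (SD, n = 2). The log2 fold change was 3.11 (SE 0.46; adjusted p = 0.000383, edgeR quasi-likelihood, Benjamini-Hochberg), resting on 5 wild-type counts. It passed the filter on low counts only through the knockout.

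Of 8 tested HMG proteins and PARP1, chromatin proteins known to compete with H1 for nucleosomes, 2 were called higher, 1 lower and 5 neither. Their median log2 fold change was 0.36. Over all genes tested, 30.2% were called higher and 60.0% either way, so these counts show no excess. PARP1 averaged 1063 ± 10.5 CPM in the knockout and 610 ± 11.8 CPM in wild type. HMGA2, an architectural protein, averaged 9.36 ± 0.65 CPM in the knockout and 16.3 ± 1.17 CPM in wild type.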
